A study of Mus musculus with 9 samples.

Results

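Hydroxysteroid dehydrogenases and steroid reductases make and break active steroid hormones by moving hydrogen at fixed positions of the steroid ring. The genes followed here were Hsd17b2, Hsd17b6, Hsd17b10, Hsd17b11, Hsd17b13, Hsd3b2, Hsd3b3, Hsd3b5, Srd5a1 and Akr1c6. They were taken by gene symbol from a table of gene counts, where each of the 10 symbols matched 1 of 18954 rows, and all 10 passed the low-count filter that left 14004 rows for testing. The counts came from RNA of 9 mouse livers, all labelled day 42, read by strand-specific sequencing after ribosomal RNA was depleted. In 4 control livers the mice carried 1 knock-in allele of GSDMD-NT (genotype GSDMD-NTki/wt), the pore-forming N-terminal part of gasdermin D, and no Cre. In 5 livers they carried that allele and 1 allele of Alb-cre (GSDMD-NTki/wt & Alb-creki/wt), in which the albumin promoter, active in hepatocytes, drives Cre recombinase. The series describes induction of cell death with doxycycline to model liver fibrosis, but the sample labels give neither dose nor timing of it. Every liver thus carried the GSDMD-NT allele, and none carried Alb-cre alone. Effects of Cre itself and of Cre together with the GSDMD-NT allele cannot be told apart. The groups are called control livers and Alb-cre livers below, and livers go by their number in the labels. The labels do not say that the livers came from separate animals, so each p-value reflects only how these samples vary, and that variation may be technical.

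In liver these enzymes mostly shape how much active hormone reaches the receptors and how quickly it is cleared. Dehydrogenases of the 17-beta group act at carbon 17 of estrogens and androgens, the 3-beta group acts at carbon 3, and 5-alpha reductases saturate the first ring of testosterone and other hormones. Several of the enzymes carry a steroid name but also work on other lipids, among them retinoids at lipid droplets and short branched acyl chains in mitochondria. The mouse liver is known for strong sex differences in this set, and Hsd3b5 is a classical gene of the male liver.

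Promoter sequences are shown for the gene with the largest change and for Hsd3b3 and Hsd3b5 of one gene cluster, whose promoters share a long run of bases. They are RefSeq windows of build GRCm38.p6, a build other than that of the counts, matched by symbol (9 of 10 genes matched), and each line gives the 250 bases before the annotated start, 5′ to 3′ on the gene's strand. The Hsd17b6 window lies at chr10:128007612-128007861, minus strand, that of Hsd3b3 at chr3:98763129-98763378, minus strand, and that of Hsd3b5 at chr3:98645535-98645784, minus strand. Capitals mark matches to CAAAGTNCA, an element bound by the hepatocyte factor HNF4A, on either strand.
Hsd17b6: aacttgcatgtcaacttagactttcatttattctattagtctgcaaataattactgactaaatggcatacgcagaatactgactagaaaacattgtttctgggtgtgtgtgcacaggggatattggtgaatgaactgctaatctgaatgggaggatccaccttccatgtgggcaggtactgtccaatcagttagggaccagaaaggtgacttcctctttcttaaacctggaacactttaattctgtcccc
Hsd3b3: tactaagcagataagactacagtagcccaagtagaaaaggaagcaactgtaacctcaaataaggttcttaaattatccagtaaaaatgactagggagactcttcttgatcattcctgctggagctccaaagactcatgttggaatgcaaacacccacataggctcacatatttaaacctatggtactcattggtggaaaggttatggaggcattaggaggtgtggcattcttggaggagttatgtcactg
Hsd3b5: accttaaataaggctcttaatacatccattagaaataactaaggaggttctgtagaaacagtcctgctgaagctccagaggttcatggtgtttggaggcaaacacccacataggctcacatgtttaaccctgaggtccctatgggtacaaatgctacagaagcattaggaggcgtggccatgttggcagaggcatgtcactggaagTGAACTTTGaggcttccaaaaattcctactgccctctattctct
The Hsd3b3 and Hsd3b5 windows share an unbroken run of 24 bases, gcaaacacccacataggctcacat. It begins 105 bases before the start in Hsd3b3 and 153 bases before it in Hsd3b5. Aligned end to end, these windows of 250 bases were identical in 151 of 301 columns (50.2%). Hsd3b2 matched Hsd3b5 in 128 of 263 columns and Hsd3b3 in 131 of 269 (48.7% each). Columns with a gap are included, and the longer alignment holds more of them. The percentages therefore do not rank how alike the paired bases are. With the 50 bases after the start included, CAAAGTNCA was matched in Hsd3b3 and Hsd3b5 and in none of the other 7 windows, against 1.41% of 32851 RefSeq windows. Both matches sit in a common setting, shown with 10 bases on each side at chr3:98763106-98763134 and chr3:98645560-98645588 (minus strand).
Hsd3b3: tcactgaaagTGGACTTTGaagcttccag
Hsd3b5: tcactggaagTGAACTTTGaggcttccaa
A match to 9 letters is a description of sequence and not a measured binding site. Of the other elements searched on both strands, TTCNNNGAA (STAT factors) was in none of the 9 windows against 8.30% of all, TTGCNNAA (C/EBP factors) was in Hsd17b10 and Hsd17b11 against 10.8%, and TGTTCT (steroid receptor half-site) was in Hsd3b2 against 19.0%. The CCAAT sequence was in 6 of the 9, Hsd17b6 and Hsd3b3 among them, against 37.4%. Each element was counted on its own, whether or not it overlapped another.

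All 10 genes had lower fitted levels in Alb-cre livers, and 7 of them fell by the test. The largest fall was that of Hsd17b6, followed by Hsd3b2, Hsd3b5, Akr1c6, Hsd17b2, Hsd17b13 and Hsd17b10, while Hsd3b3, Hsd17b11 and Srd5a1 did not pass. In whole liver, fewer hepatocytes and less RNA of these genes per hepatocyte cannot be told apart. Levels are TMM-scaled CPM (a gene's share of the library's counts on a fixed scale). Changes are given as log2 fold change ± SE of Alb-cre over control livers. Calls are at an adjusted p under 0.05, by the quasi-likelihood test of edgeR, with Benjamini-Hochberg adjustment over all 14004 genes. Of all tested genes 18.3% were called, and 9.07% of all tested genes were called lower. The median log2 fold change was -0.71 over the 10 genes and 0.01 over all tested genes. The groups did not overlap for 8 of the 10 genes, all lower in Alb-cre livers, against 9.22% of all tested genes in that direction and 18.5% in either. The 10 genes were chosen with earlier results of these data known, so these contrasts do not describe the enzyme family as a whole. Among 7 other tested dehydrogenases of the family the median log2 fold change was 0.25. It was -0.33 among 12 other tested steroid and aldo-keto reductases. The number of higher members was 0 by edgeR, also 0 at an unadjusted p under 0.05 and 0 by DESeq2 and by limma-voom, and 8 were lower at an unadjusted p under 0.05. The count of 7 lower members was sensitive to the livers used. It was 4 without control 1, control 2, Alb-cre 1 or Alb-cre 5 and 3 without control 4, and with controls 2 and 4 both left out it was 0 by edgeR (6 at an unadjusted p under 0.05).

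**Figure D1:**
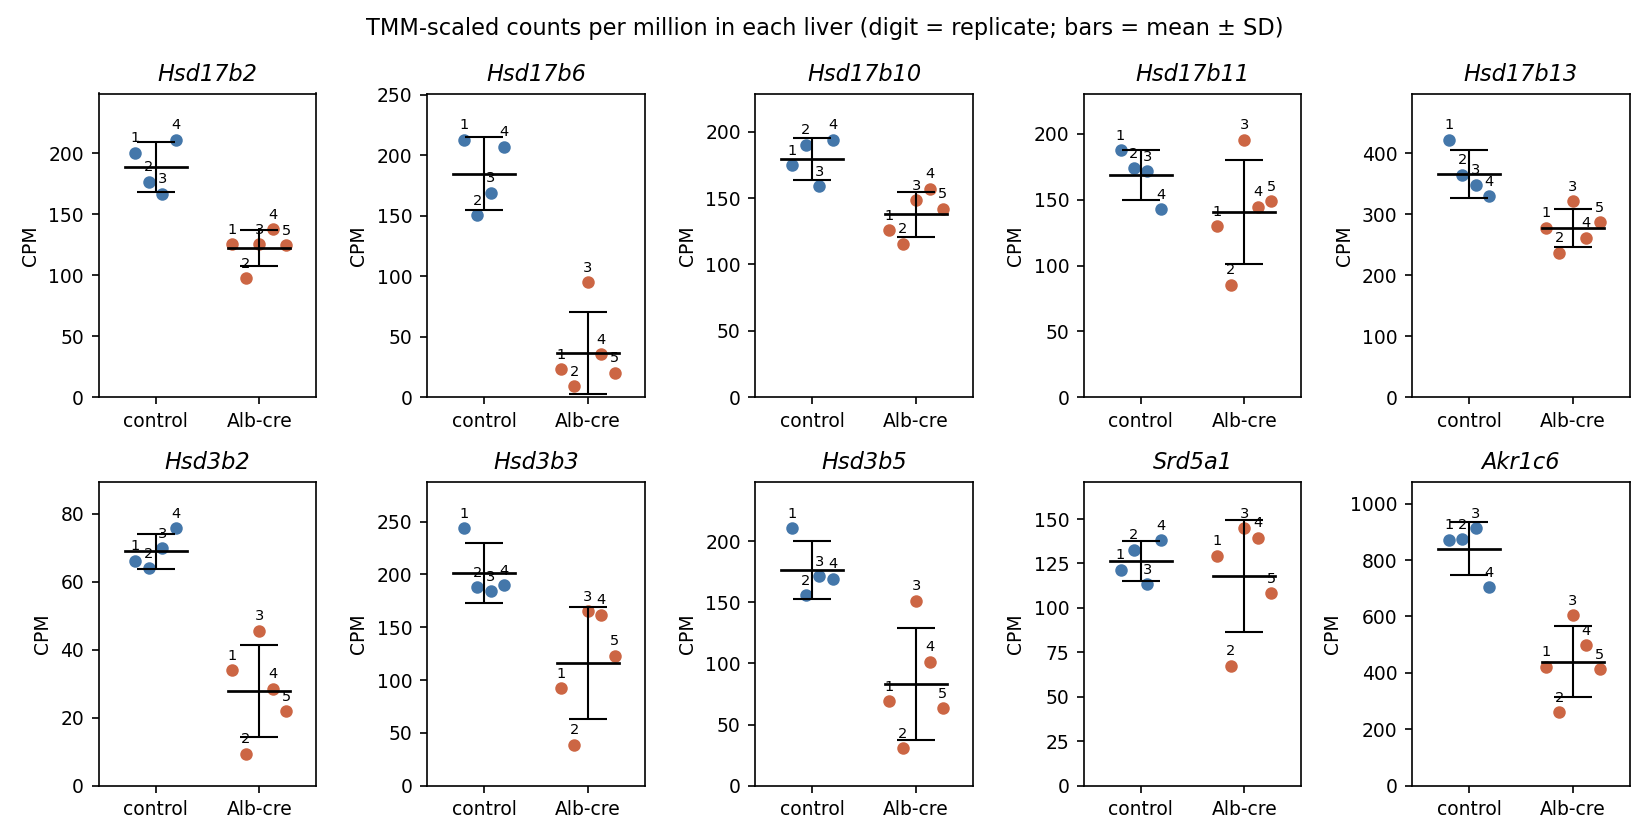
TMM-scaled CPM (vertical axes from 0) of the 10 genes in 4 control livers (blue) and 5 Alb-cre livers (orange). Each point is a liver with its replicate number and bars are mean ± SD, and the groups are apart in 8 panels and overlap for Hsd17b11 and Srd5a1.

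**Figure D2:**
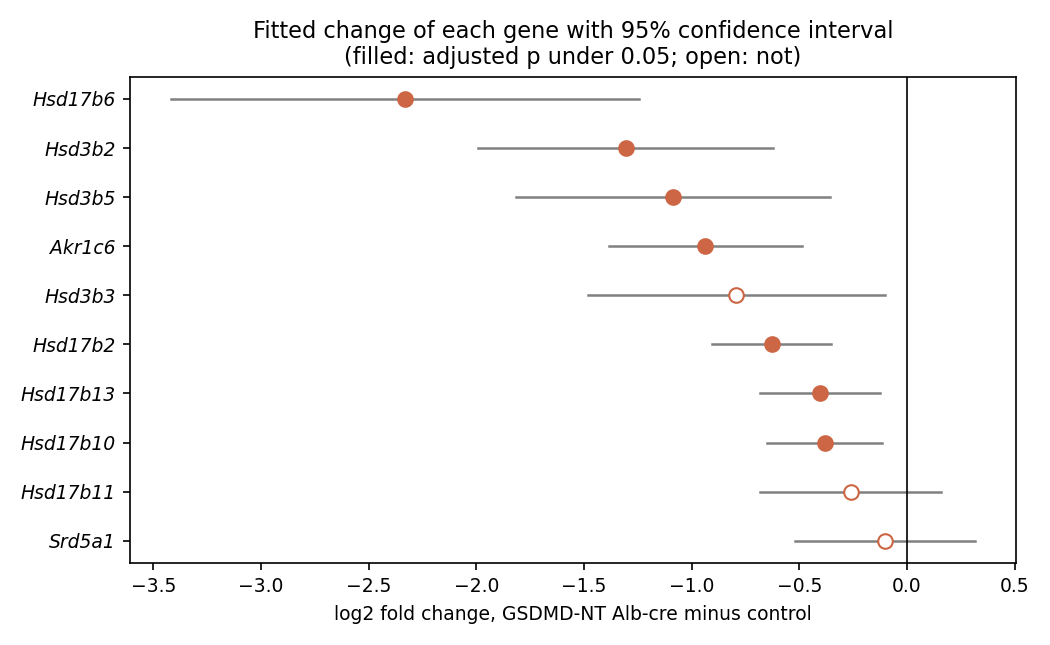
Log2 fold change of each gene, Alb-cre minus control, with its 95% confidence interval as a line. Filled points are the 7 genes with an adjusted p under 0.05, and the intervals of Hsd17b11 and Srd5a1 cross 0.

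Total counts ran from 13361093 to 16823506 per liver, and the 10 genes together took 0.238 to 0.272% of the counts in controls and 0.085 to 0.208% in Alb-cre livers. Gsdmd measured 38.8 ± 7.17 CPM in controls and 41 ± 7.16 CPM in Alb-cre livers and does not check the genotypes, since it is not stated whether the inserted sequence was counted under it. Of 12 hepatocyte markers all were tested and 3 fell (Ttr, Apoa2 and Ass1), or 25.0%. Of all tested genes 9.07% were called lower and 18.3% in either direction. Trf, Cps1, Hnf4a, Apob and Pck1 had log2 fold changes of 0.21 to 0.46 and were not called. Alb, Apoa1, Cyp2e1 and Serpina1a had changes of -0.43 to -0.20 and were not called. The summed level of the 12 markers was 102191 to 124595 CPM in controls and 85116 to 96480 CPM in Alb-cre livers. The part of the marker difference in the falls was not tested. The calls of Ttr and Apoa2 held without any 1 liver, and that of Ass1 stood only without control 3 or Alb-cre 4. Alb was at 36183 to 61954 CPM. Markers of other cells were low. Summed levels were 49.4 to 113 CPM for cholangiocytes, 139 to 468 CPM for stellate cells, 107 to 245 CPM for endothelium, 117 to 225 CPM for macrophages, 2.07 to 10.01 CPM for neutrophils, 1.15 to 8.49 CPM for lymphocytes, 120 to 452 CPM for red cells and 32.8 to 67.8 CPM for exocrine pancreas and gut. Lyve1, Cdh5 and Timd4 rose among them, and Cd79a, Hba-a2 and Fabp2 were among those that fell. Of the tested markers, 2 of 8 were called for endothelium, 1 of 8 for macrophages and 2 of 3 for lymphocytes. For red cells 1 of 5 was called, and for exocrine pancreas and gut 1 of 2. None was called of 6 for cholangiocytes, 10 for stellate cells and 2 for neutrophils. These are few genes each, beside 18.3% called among all tested genes. The call of Cd79a held without any 1 liver. The Lyve1 call was lost without control 1, 3 or 4 or Alb-cre 1, and that of Hba-a2 without control 3 or 4 or Alb-cre 1 or 5. Those of Cdh5 (only without Alb-cre 2), Timd4 (without control 1 or Alb-cre 2 or 4) and Fabp2 (without control 1 or 3 or Alb-cre 5) stood in few fits. Of 10 markers of steroid-making glands 3 were found, and their sum was 9.44 to 14.7 CPM in controls and 10.2 to 40.4 CPM in Alb-cre livers, and none of the 3 was called (edgeR).

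Levels can be compared between genes only per length, here CPM per kilobase of the median complete coding transcript. In controls Akr1c6 stood highest at 602 ± 66.5 CPM per kilobase, ahead of Hsd17b13 at 280 ± 30.5 and Hsd17b10 at 184 ± 16.3. Hsd17b2 (143 ± 15.6), Hsd3b3 (137 ± 19.3), Hsd17b6 (127 ± 20.6) and Hsd3b5 (114 ± 15.3) followed, with neighbours in this order closer than their SDs. The lowest levels per kilobase were those of Hsd17b11 (83.2 ± 9.33), Srd5a1 (47.8 ± 4.18) and Hsd3b2 (38.6 ± 2.86). In Alb-cre livers Hsd17b6 moved from place 6 to place 9, at 25.1 ± 23.3 CPM per kilobase, while the first 5 places were held by the same genes in the same order.

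Among the enzymes that act on androgens and estrogens at carbon 17, Hsd17b6 fell furthest. It belongs to the retinol dehydrogenase branch of the short-chain dehydrogenases and oxidizes androgen metabolites and retinoids. Its gene (ENSMUSG00000025396.8) lies on chromosome 10, and its level was 213, 151, 169 and 207 CPM in controls 1 to 4 and 23.2, 9.05, 95.2, 35.3 and 20.3 CPM in Alb-cre 1 to 5. The highest Alb-cre liver, number 3, stayed under the lowest control, and the other 4 livers of that group were lower still. Expression fell 5.04-fold, with a 95% confidence interval of 2.37 to 10.7-fold (log2 fold change -2.33 ± 0.50, adjusted p = 0.0108), and the call held in each of the 9 fits with 1 liver removed. With controls 2 and 4 both left out the log2 fold change was -2.38 and the adjusted p 0.103. The spread between Alb-cre livers was wide, with a 10.5-fold range against 1.41-fold in controls. Of the 150-base stretches of its transcripts 5.66% also occur in Rdh1 or Rdh16f1, so a small part of its reads could be split between these genes.

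Akr1c6 encodes an aldo-keto reductase that in mouse liver turns androstenedione into testosterone. The gene (ENSMUSG00000021210.17, chromosome 13) was counted at 873, 873, 913 and 704 CPM in controls 1 to 4 and 422, 261, 604, 497 and 413 CPM in Alb-cre 1 to 5. Every Alb-cre liver was below every control. The mean fell to 52.3% of the control mean (log2 fold change -0.94 ± 0.21, 95% confidence interval -1.38 to -0.49, adjusted p = 0.0122), and the call held in each of the 9 fits with 1 liver removed. The fall of Hsd17b6 was larger than that of Akr1c6 in each Alb-cre liver. The ratio of Hsd17b6 to Akr1c6 was 0.172 to 0.294 in controls and 0.0347 to 0.158 in Alb-cre livers, with no overlap. An exact two-sided permutation test of the mean log2 ratio over all splits of the livers gave p = 0.0159, and p = 0.0635 after Benjamini-Hochberg adjustment over the 4 ratios tested. The unadjusted value is the lowest that this test can give with 4 and 5 livers. A single separated ratio among the 4 could therefore not pass 0.05 after adjustment.

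Hsd17b2, whose product oxidizes estradiol to estrone and testosterone to androstenedione, fell in a narrow band. Its gene (ENSMUSG00000031844.9, chromosome 8) measured 201, 177, 167 and 211 CPM in controls 1 to 4 and 125.8, 97.5, 125, 138 and 125 CPM in Alb-cre 1 to 5. The groups were apart, and 4 of the 5 Alb-cre livers lay between 124.6 and 138 CPM. The mean was 64.7% of the control mean (log2 fold change -0.63 ± 0.13, 95% confidence interval -0.90 to -0.35, adjusted p = 0.00902), and the call held in each of the 9 fits with 1 liver removed. Relative spread was alike in both groups, with an SD of 10.9% of the mean in controls and 12.2% in Alb-cre livers, unlike that of Hsd17b6 at 16.2% and 93%.

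The 3-beta-hydroxysteroid dehydrogenases Hsd3b2, Hsd3b3 and Hsd3b5 lie in one cluster on chromosome 3. The family converts pregnenolone and related hormones to their ketone forms, while the mouse liver protein Hsd3b5 works as a reductase of 3-keto steroids. Hsd3b2 (ENSMUSG00000063730.14), the weakest of the 3 per kilobase, measured 66.2, 64, 69.8 and 75.7 CPM in controls 1 to 4 and 34, 9.39, 45.6, 28.5 and 21.9 CPM in Alb-cre 1 to 5. Each Alb-cre liver was below each control, and the mean was 40.4% of the control mean (log2 fold change -1.31 ± 0.32, 95% confidence interval -1.99 to -0.62, adjusted p = 0.0177). The Hsd3b2 call was lost without control 4 (adjusted p = 0.0529). Hsd3b5 (ENSMUSG00000038092.7) was counted at 211, 156, 171 and 169 CPM in controls 1 to 4 and 68.9, 30.5, 151, 101 and 63.4 CPM in Alb-cre 1 to 5. Alb-cre 3 lay just under the lowest control, and Alb-cre 2 was the lowest of all 9 livers. The mean of Hsd3b5 was 47% of that of controls (log2 fold change -1.09 ± 0.33, 95% confidence interval -1.81 to -0.36, adjusted p = 0.0422). This call was lost without control 1, 2, 3 or 4 or Alb-cre 1 or 5 (adjusted p = 0.0675 to 0.0909).

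Hsd3b3 (ENSMUSG00000062410.15), the highest of the cluster per kilobase in both groups, measured 244, 188, 184 and 189.9 CPM in controls 1 to 4 and 92.2, 38.9, 165, 162 and 123 CPM in Alb-cre 1 to 5. The groups were apart, with Alb-cre 3 and 4 close beneath the controls. Its mean was 57.7% of the control mean, but the test did not call it (log2 fold change -0.79 ± 0.32, 95% confidence interval -1.48 to -0.10, adjusted p = 0.099). Hsd3b5 made up 39.5 ± 1.11% (SD, n = 4) of all Hsd3b CPM in controls and 36.2 ± 4.28% (SD, n = 5) in Alb-cre livers, Hsd3b3 made up 45.0 ± 1.77% and 51.4 ± 5.67%, and Hsd3b2 made up 15.6 ± 2.02% and 12.4 ± 3.01%. The ratios to Hsd3b3 overlapped between groups for Hsd3b2 (difference of mean log2 ratio -0.53) and for Hsd3b5 (-0.32), each with an exact permutation p = 0.0794 and p = 0.106 after adjustment over 4 ratios. Shared sequence is limited over a whole 150-base read, at 2.16% of Hsd3b2 and 1.33% of Hsd3b3 stretches, but reaches 25.1% of Hsd3b2 and 21.2% of Hsd3b5 over 50 bases. When the 5 Hsd3b rows were summed per liver, the total was not called, at 408 to 520 CPM in controls and 78.8 to 362 CPM in Alb-cre livers, with means going from 447 ± 50.2 CPM to 227 ± 107 CPM (-0.98 ± 0.32 on the log2 scale, adjusted p = 0.0511 by edgeR). Hsd3b4 and Hsd3b6 each made up at most 0.0319% of it in any liver. Leaving out 1 liver, the log2 fold change of Hsd3b3 was -0.94 to -0.57 and it was never called (adjusted p = 0.0512 to 0.198, edgeR).

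**Figure D3:**
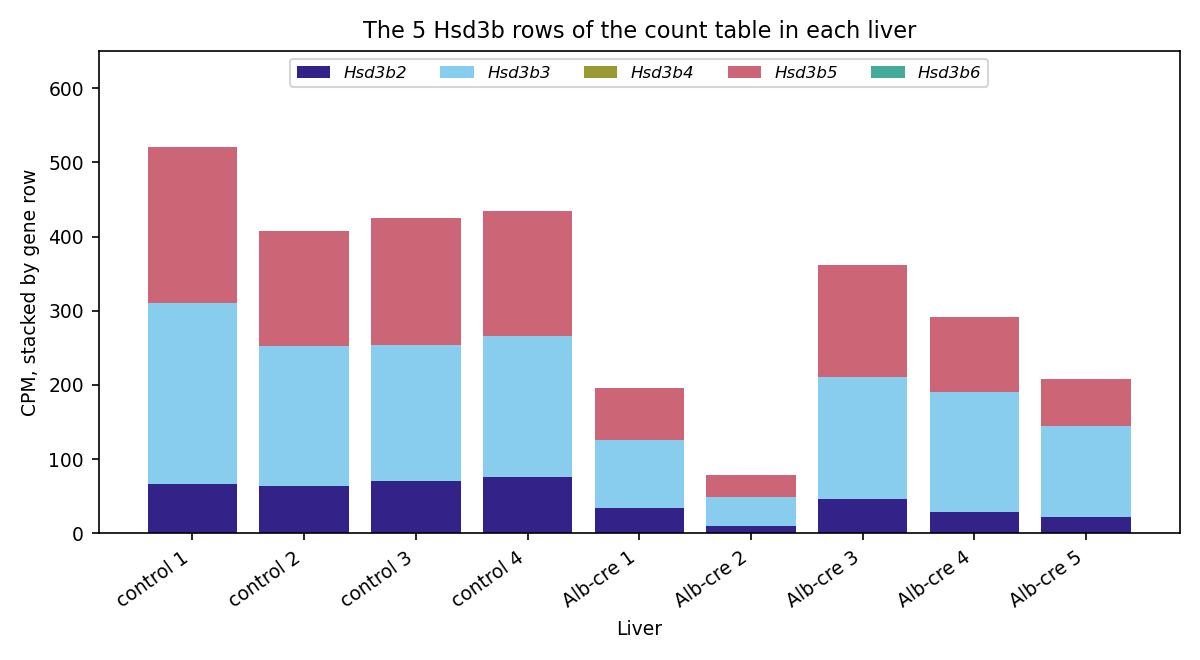
CPM of the Hsd3b2, Hsd3b3, Hsd3b4, Hsd3b5 and Hsd3b6 rows stacked for each of 4 control and 5 Alb-cre livers, with the vertical axis from 0. The stack was 408 to 520 CPM in controls and 78.8 to 362 CPM in Alb-cre livers, lowest in Alb-cre 2, and Hsd3b4 and Hsd3b6 are too low to see.

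Hsd17b11 and Hsd17b13 are neighbours on chromosome 5 whose products sit on lipid droplets, where HSD17B13 acts as a retinol dehydrogenase in human cells. Hsd17b13 (ENSMUSG00000034528.16) measured 422, 365, 349 and 329.9 CPM in controls 1 to 4 and 278, 237, 322, 262 and 287 CPM in Alb-cre 1 to 5. The groups were apart, although Alb-cre 3 lay just under control 4. The fall to 75.7% of the control mean passed the test by a small margin (log2 fold change -0.40 ± 0.13, 95% confidence interval -0.68 to -0.12, adjusted p = 0.0472). Of the 9 fits that left out 1 liver, the Hsd17b13 call stood in 1, the one without Alb-cre 3 (adjusted p in the other 8 = 0.0607 to 0.118). Hsd17b11 (ENSMUSG00000029311.17) measured 188, 174, 172 and 143 CPM in controls 1 to 4 and 130.0, 85.5, 195, 145 and 149 CPM in Alb-cre 1 to 5. Alb-cre 3 held the highest level of all 9 livers and Alb-cre 2 the lowest, so the groups overlapped (log2 fold change -0.26 ± 0.19, 95% confidence interval -0.68 to 0.16, adjusted p = 0.36). The ratio of Hsd17b13 to Hsd17b11 was 2.03 to 2.31 in controls and 1.65 to 2.78 in Alb-cre livers (difference of mean log2 ratio -0.10, exact permutation p = 0.54, p = 0.54 after adjustment over 4 ratios). The 2 genes share no 150-base stretch of transcript with any other gene.

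Hsd17b10 encodes a mitochondrial dehydrogenase of isoleucine breakdown that is also a subunit of the mitochondrial enzyme RNase P. It lies on the X chromosome (ENSMUSG00000025260.11) and measured 175, 190.2, 159 and 194 CPM in controls 1 to 4 and 125.8, 116, 148, 157 and 142 CPM in Alb-cre 1 to 5. The highest Alb-cre liver, number 4, lay just under the lowest control, number 3. The call (log2 fold change -0.38 ± 0.12, 95% confidence interval -0.65 to -0.11, adjusted p = 0.0495) stood only without control 3 or Alb-cre 4 and was lost in the other 7 fits that left out 1 liver (adjusted p = 0.0595 to 0.128). Srd5a1, the 5-alpha reductase that makes dihydrotestosterone (ENSMUSG00000021594.12, chromosome 13), measured 121, 133, 113 and 138 CPM in controls 1 to 4 and 129, 67.4, 145, 139.6 and 108 CPM in Alb-cre 1 to 5. Alb-cre 1, 3 and 4 lay among or above the controls, and Alb-cre 2 far below. Its interval allows from a fall of 0.52 to a rise of 0.32 on the log2 scale (log2 fold change -0.10 ± 0.19, 95% confidence interval -0.52 to 0.32, adjusted p = 0.742), and the fitted change was 0.04 without Alb-cre 2. Of its 150-base stretches 12% occur in Gm17108 as well.

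The Alb-cre livers had the same lowest and the same highest liver for 8 of the 10 genes. Alb-cre 2 was the lowest of the 5 for all 10 genes, and Alb-cre 3 was the highest for 8, the exceptions being Hsd17b2 and Hsd17b10, which were highest in Alb-cre 4. Among all tested genes 12.5% were lowest in number 2 and highest in number 3. Relative to the control mean, the median over the 10 genes was -1.33 on the log2 scale in Alb-cre 2, -0.78 in 1, -0.65 in 5, -0.46 in 4 and -0.27 in 3, while controls lay between -0.09 and 0.13. For Hsd17b6 these differences ran from -4.34 in Alb-cre 2 to -0.94 in 3, and for Hsd17b2 from -0.95 in 2 to -0.45 in 4.

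Acute phase genes, which hepatocytes switch on under inflammatory cytokines, were highest in Alb-cre 2 and, among the 5, lowest in Alb-cre 3. Their list mean, on the scale of log2(CPM + 0.5), stood above the control mean by 3.68 in Alb-cre 2, 2.72 in 5, 2.02 in 1, 1.41 in 4 and 0.17 in 3, against -0.22 to 0.32 in controls. The levels of Hsd17b6, Hsd3b5, Srd5a1 and Akr1c6 had exactly the opposite order over these 5 livers, as did 2.06% of all tested genes. This ordering was looked for after the values were seen. Of 25 acute phase genes tested 20 rose (median log2 fold change 1.85), led by Saa4 (1.96 ± 0.27, adjusted p = 0.00282, edgeR), Stat3 (1.53 ± 0.26, adjusted p = 0.00492, edgeR) and Saa1 (7.20 ± 1.27, adjusted p = 0.00586, edgeR), and leaving out control 2, 3 or 4 lowered the number to 10, 12 or 9. The part of the acute phase response in the falls of the steroid enzymes was not tested. In Alb-cre 3 the acute phase mean was within the range of controls. There Hsd17b6 was at 95.2 CPM, Hsd3b2 at 45.6 CPM, Hsd17b2 at 125 CPM and Akr1c6 at 604 CPM, each below the lowest control. Closer to the lowest control were Hsd3b3 (165 against 184 CPM), Hsd3b5 (151 against 156), Hsd17b10 (148 against 159) and Hsd17b13 (322 against 330). Hsd17b11 (195 CPM) and Srd5a1 (145 CPM) had in Alb-cre 3 their highest level of all 9 livers. These values are those of 1 liver.

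**Figure D4:**
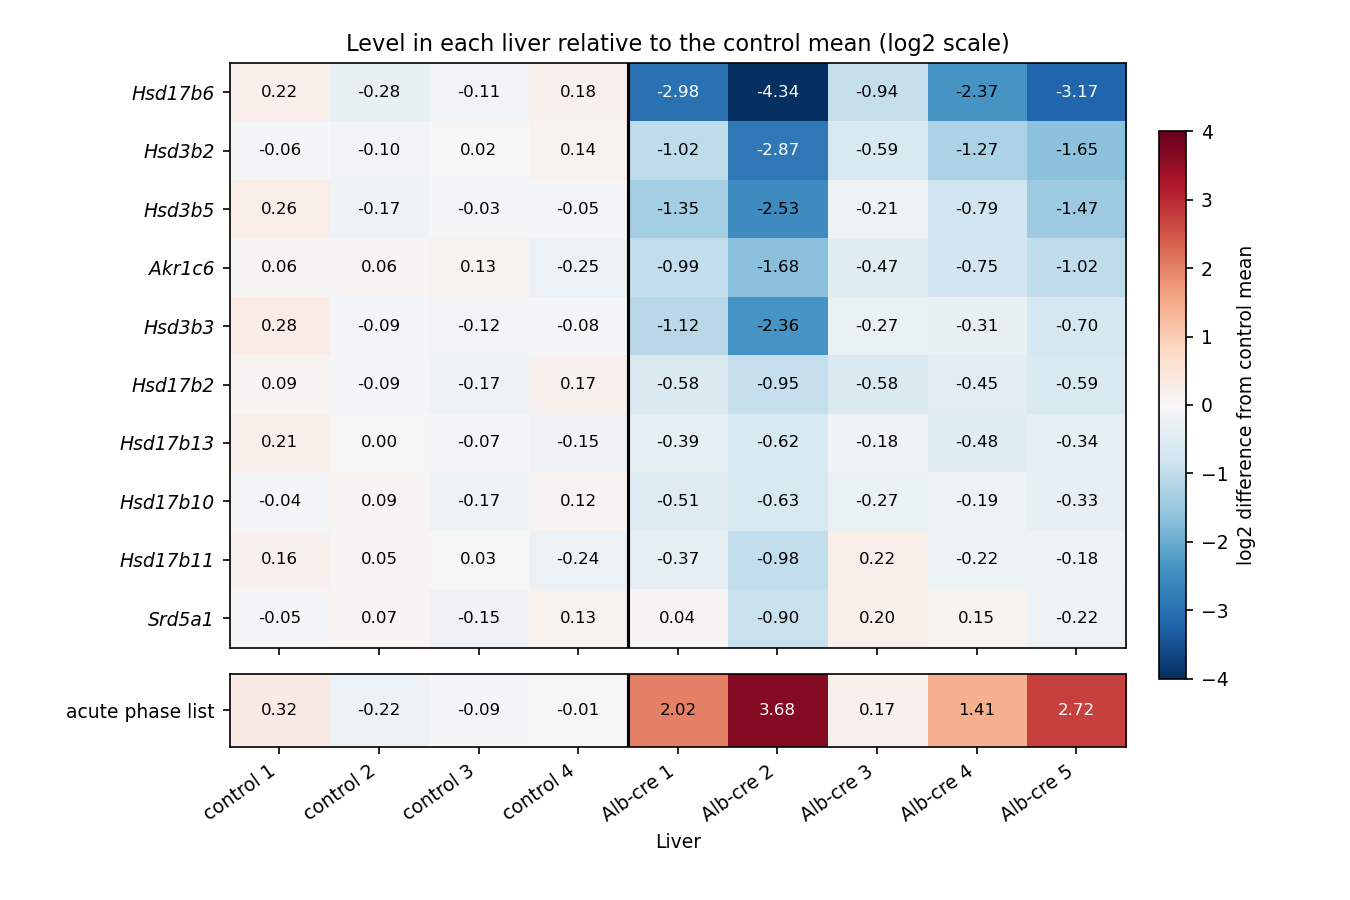
Log2 difference of each gene from its control mean in each of the 9 livers, as colour and number, with the mean over 25 acute phase genes (log2(CPM + 0.5) scale) in the strip beneath. Alb-cre 2 shows the lowest values for all 10 genes and the highest acute phase mean (3.68), and Alb-cre 3 has the acute phase mean closest to controls (0.17).

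For each of the 8 genes without overlap, the 3 genes with the closest profile over the 9 livers were taken by root mean square distance of centred log2 CPM, out of 8525 genes whose mean log2 CPM was 3 or more. Cryl1, which encodes a crystallin-related dehydrogenase, was among the 3 closest to Hsd3b2 (0.26), Hsd3b3 (0.17) and Hsd3b5 (0.14). Sulf2 was closest to Hsd3b3 (0.14), Slc26a10 to Hsd3b2 (0.18), and Car14 was next to Cryl1 for Hsd3b5 (0.15). The nearest to Akr1c6 were the carboxylesterase gene Ces1f (0.11), Cisd1 (0.12) and Casp6 (0.12), and those to Hsd17b2 were Pias3 (0.08), Magix (0.09) and Nit2 (0.09). For Hsd17b6 the nearest were Hcn3 at 0.45, Adamts7 at 0.52 and the glutathione transferase gene Gsta2 at 0.57. Profiles were centred but not scaled, so the distance grows with the size of a gene's own differences between livers. Distances of different members, also within the set, therefore do not compare likeness of pattern. Hsd17b10 was nearest to Naxd (0.05) and Hsd17b13 to Apool (0.07). Within the set, Hsd17b2 and Hsd17b10 were the closest pair (0.16), and Hsd3b5 was at 0.27 from both Hsd3b2 and Hsd3b3.

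Other dehydrogenases of the family were read beside the 10 genes. Of 17 listed relatives 12 were found and 7 tested, and 14.3% of those were called against 18.3% of all tested genes. The median log2 fold change was 0.25 and 1 rose, Hsd17b7, which serves cholesterol synthesis and reduces estrone, from 58.4 ± 15.8 CPM to 109 ± 33.3 CPM (0.90 ± 0.24 on the log2 scale, adjusted p = 0.0255, edgeR). The Hsd17b7 groups overlapped, and its call was lost without control 1, 2 or 4 or Alb-cre 1 or 5 (adjusted p = 0.051 to 0.079). Hsd11b1, which regenerates active glucocorticoid, was not called (log2 fold change -0.57 ± 0.20, adjusted p = 0.0623, edgeR). Hsd3b7, of bile acid synthesis, was listed at 0 in all 9 livers and was not tested. How reads were counted is not stated, so this 0 may be a gap in the counting and does not show that the gene was not expressed. Among 12 tested steroid and aldo-keto reductases the median log2 fold change was -0.33 and 3 fell (25.0%). They were Tecr, a reductase of very long chain fatty acid synthesis (-0.46 ± 0.13, adjusted p = 0.0339, edgeR), Cbr4 (-0.36 ± 0.11, adjusted p = 0.0371, edgeR) and the second 5-alpha reductase gene Srd5a2 (-0.86 ± 0.27, adjusted p = 0.0443, edgeR). Srd5a2 was low, at 2.66 ± 0.555 CPM in controls and 1.46 ± 0.371 CPM in Alb-cre livers. These 3 calls stood in 2, 1 and 2 of the 9 fits that left out 1 liver. All were lost without control 1, 2 or 4 or Alb-cre 1, 4 or 5. The Akr1c relatives Akr1c12, Akr1c13, Akr1c14, Akr1c19 and Akr1c20 had log2 fold changes of -0.72 to -0.23 and none was called (adjusted p = 0.103 to 0.716, edgeR).

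Lists of genes that act next to these enzymes were read against the 18.3% called among all tested genes. The share was 16.7% for retinol dehydrogenases and 20% for conjugation, both near that background, and 42.9% for hydroxylation. Of 12 retinol dehydrogenases and relatives tested 2 fell (median log2 fold change -0.23), Dhrs3, which reduces retinal (-0.71 ± 0.18, adjusted p = 0.0207, edgeR), and Rdh7 (-0.46 ± 0.13, adjusted p = 0.0334, edgeR). The Dhrs3 call was lost without control 2 or 4 or Alb-cre 1 (adjusted p = 0.0551 to 0.0657). The Rdh7 call stood in 3 of the 9 fits, those without control 4 or Alb-cre 2 or 3. Of 15 conjugating genes, whose enzymes attach sugar or sulfate to steroids and other compounds, 3 fell (median -0.45). Ugt2b5 went from 780 ± 156 CPM to 425 ± 113 CPM (-0.87 ± 0.21, adjusted p = 0.0161, edgeR) and Ugt2b36 from 671 ± 103 CPM to 362 ± 107 CPM (-0.89 ± 0.21, adjusted p = 0.0165, edgeR), both calls standing without any 1 liver. Both have close paralogs that could share reads. The sulfotransferase gene Sult1b1 fell too (-0.79 ± 0.20, adjusted p = 0.0222, edgeR), a call lost without control 2 or Alb-cre 1 or 5 (adjusted p = 0.0503 to 0.0609). Of 14 steroid-hydroxylating P450 genes 2 rose and 4 fell (median -0.35), and the number that fell was 1 without control 2, control 4 or Alb-cre 1. Cyp3a13 rose from 107 ± 21.0 CPM to 196 ± 41.3 CPM (0.87 ± 0.18, adjusted p = 0.00969, edgeR). The other rise was that of Cyp2c40. Cyp2a5, the coumarin hydroxylase of mouse liver, fell from 894 ± 203 CPM to 369 ± 163 CPM (-1.28 ± 0.32, adjusted p = 0.0211, edgeR), and Cyp2a4, a testosterone hydroxylase, Cyp3a25 and Cyp1a2 fell as well. The Cyp2a5 call was lost without control 2 or Alb-cre 1, that of Cyp2a4 without control 4, that of Cyp3a25 without control 2 or 4 or Alb-cre 1, and that of Cyp1a2 without these or Alb-cre 5.

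Of 13 steroid and xenobiotic receptor and carrier genes 2 rose and 1 fell (median -0.13), 23.1% against 18.3% of all tested genes. Esr1, the estrogen receptor alpha gene, rose from 10.8 ± 2.27 CPM to 25.2 ± 7.83 CPM without overlap (1.22 ± 0.23, adjusted p = 0.00677, edgeR). Serpina6, which encodes the corticosteroid-binding globulin of plasma, fell from 232 ± 51.3 CPM to 109 ± 24.2 CPM without overlap (-1.10 ± 0.18, adjusted p = 0.00484, edgeR). Both of these calls stood without any 1 liver. Rxra rose (0.51 ± 0.14, adjusted p = 0.0275, edgeR), a call lost without control 2, 3 or 4 or Alb-cre 1 or 5 (adjusted p = 0.0573 to 0.0775). The number that fell was 2 without Alb-cre 3.

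Sex-biased genes of the hepatocyte were read because Hsd3b5 is one of them. The labels give no sex for any liver, so they do not show whether the sexes were balanced between the groups. The female-biased genes Cyp2b9, Cyp3a16, Cyp3a41a, Cyp3a41b, Cyp3a44, Sult2a1, Sult2a2 and Cux2 were too low to be tested. Each was at 0 to 0.646 CPM in all 9 livers. Male-biased Cyp4a12a was at 244 to 507 CPM and Mup20 at 1102 to 4197 CPM, while male-biased Cspg5 was at 0.533 to 2.78 CPM. The sex of the livers was not tested. Of 25 genes known as male-biased 3 rose and 3 fell (24% called, median log2 fold change -0.02), led by falls of Mup20, a urinary protein and pheromone (-1.22 ± 0.20, adjusted p = 0.00484, edgeR), and Gstp1 (-0.86 ± 0.16, adjusted p = 0.00658, edgeR), both calls standing without any 1 liver. The 3 rises were those of C8a, Mup11 and Trim24, and all 3 calls were lost without control 4. That of C8a was also lost without control 2, and that of Trim24 without control 1 or 3 or Alb-cre 1 or 5. Of 12 tested female-biased genes 2 rose and 2 fell (33.3% called, median -0.03). The rises were Cyp2c40 (3.15 ± 0.20, adjusted p = 1.91e-05, edgeR) and Cyp2c69, and the falls were Cyp2a4 and Abcd2, the latter a call that stood only without control 1 or 4 or Alb-cre 3. The number of female-biased genes that fell was 4 without Alb-cre 3 and 1 without any other liver except control 1. Near-identical neighbours could share reads in the Mup, Cyp2a and Cyp2c clusters. In the growth hormone list 1 of 13 tested genes fell (7.69%, median -0.32), Igf1 (-0.44 ± 0.13, adjusted p = 0.0344, edgeR), a call lost without control 2 or 4 or Alb-cre 1, 3, 4 or 5 (adjusted p = 0.0644 to 0.0915).

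The surroundings of the non-steroid members were read in the same way. Of 24 lipid droplet genes 3 rose (median 0.18), namely Plin4 (1.42 ± 0.35, adjusted p = 0.0191, edgeR), Sqle (1.297 ± 0.33, adjusted p = 0.0203, edgeR) and Plin5 (0.64 ± 0.16, adjusted p = 0.0221, edgeR), of which Plin4 and Plin5 encode droplet coat proteins and Sqle an enzyme of sterol synthesis. All 3 calls were lost without control 2 or control 4. The list's share of calls, 12.5%, compares with 9.25% of all tested genes called higher and 18.3% called in either direction. Of 15 genes of mitochondrial RNase P and isoleucine breakdown 1 rose (6.67%, median -0.02), the tRNA-processing gene Elac2 (0.38 ± 0.12, adjusted p = 0.0496, edgeR), a call that stood in 2 of the 9 fits without 1 liver, those without Alb-cre 4 or control 1. The RNase P partners of Hsd17b10 were not called, with log2 fold changes of 0.51 ± 0.18 for Trmt10c (adjusted p = 0.0711, edgeR) and 0.25 ± 0.16 for Prorp (adjusted p = 0.282, edgeR).

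**Figure D5:**
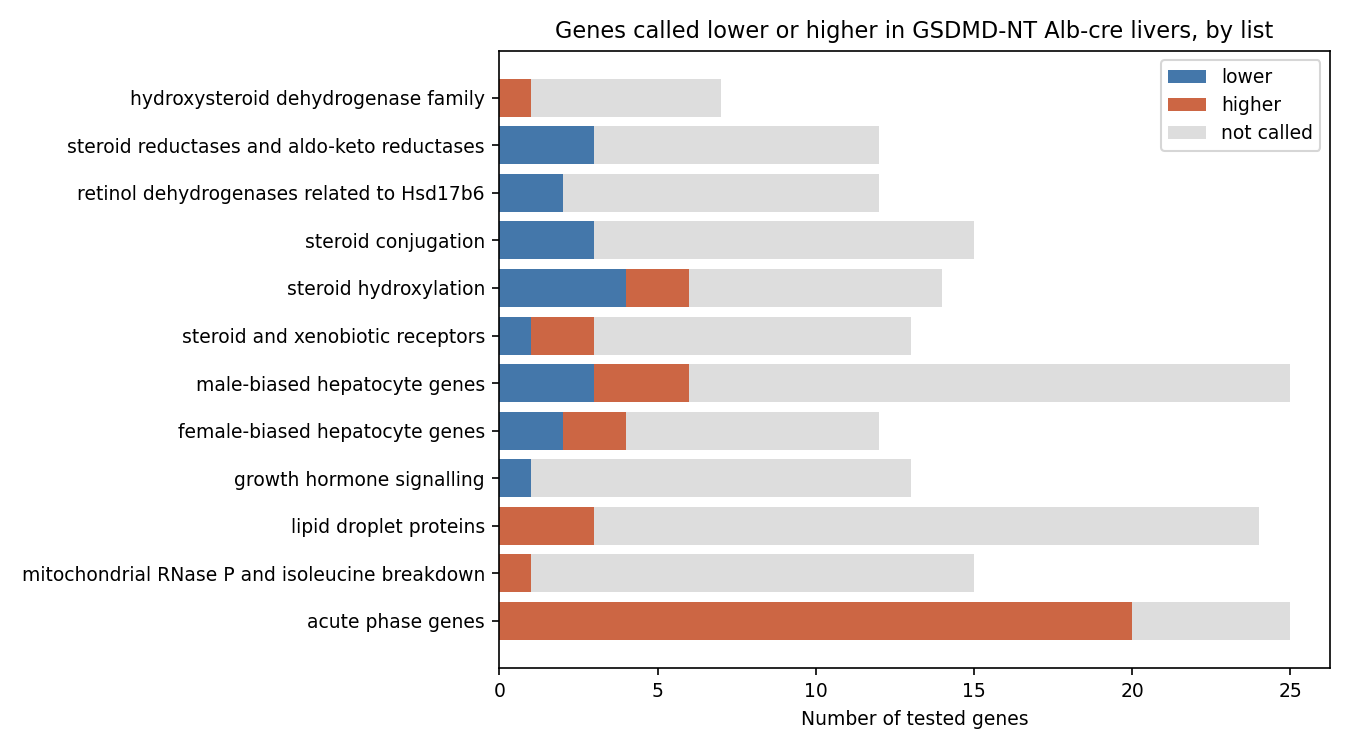
Number of tested genes in each of 12 lists (horizontal axis) that were lower (blue), higher (orange) or not called (grey) in Alb-cre livers by edgeR, without the 10 genes described above. The acute phase list has 20 of 25 genes higher, against 9.25% of all tested genes.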

How the data were processed

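Gene counts of 9 mouse livers were analysed, 4 control and 5 GSDMD-NT Alb-cre, grouped by sample title. The deposited values were whole-number counts per gene with no normalization. Reads went through fastp 0.23.2 and HISAT2 2.1.0 on build GRCm39, per the submitters' processing notes. How reads were counted, with which strand setting and annotation, was not given in the sources used here. Reads shared by paralogs may have been split or dropped. Genes passing filterByExpr (14004 of 18954) were scaled by TMM and tested in R 4.3.3 with edgeR 4.0.16 (glmQLFit, glmQLFTest), with p adjusted over all of them and SE derived from the F statistic. On counts simulated for this comparison with 14004 genes, the test found 19.4% of genes altered 1.5-fold, 62.7% at 2-fold and 86.4% at 4-fold. The simulation altered a far smaller share of genes than the 18.3% called here and took each gene's spread from a common trend. Its rates of recovery therefore need not hold for these data. The members and the 12 pathway and 10 marker lists were chosen with earlier results of these data known. The genes named were all members and, per list and direction, up to 3 calls with the smallest adjusted p, and not all are used. Other relatives named (Cyp1a2, Hsd11b1, Hsd3b7, the Akr1c genes, Trmt10c, Prorp) were chosen after their values were seen. Some listed genes are not reported here. Transcript lengths and shared stretches came from GENCODE M21 (GRCm38). Alternatives used DESeq2 1.42.0 and limma 3.58.1. Promoters were aligned with Biopython 1.88, ratios tested with scipy 1.17.1 and figures drawn with matplotlib 3.10.9.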

Additional observations from a re-analysis of the deposited data

Results flagged for a closer look

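One value stood apart from its group by Dixon's criterion. Hsd3b3 in control 1 measured 243.7 CPM against 189.9 CPM in the next control, a gap of 0.90 of the range of the 4 controls, over a limit of 0.829. About 1 in 20 groups would pass this limit by chance, and 20 groups of livers were examined. Without control 1 Hsd3b3 was again not called by edgeR (log2 fold change -0.68, adjusted p = 0.198).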

How the results depend on the processing

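Of the 10 genes, Hsd17b2, Hsd17b6 and Akr1c6 kept their call without any 1 liver and under the alternative scalings, filters and tools, and Hsd17b2 lost it in the fit with a replicate block on the description number (adjusted p = 0.128). All 3 lost it without controls 2 and 4 (adjusted p = 0.0924 to 0.103). The count of lower members was 4 with library totals alone and 4 with length-corrected offsets, and that of the higher ones was 0 in every alternative run. Leaving out 1 liver at a time gave 3 to 6 lower members, 567 to 1339 higher genes and 625 to 1184 lower genes. With controls 2 and 4 both left out, 29 genes were higher, 44 lower and 0 members lower by edgeR, with 6 members lower at an unadjusted p under 0.05. That fit and the length-corrected one were chosen after seeing the data. Samples sharing a title number did not pair (correlations of their deviations 0.05, -0.01, 0.08 and 0.13, with 3 of 8 livers closest to their own number). The replicate block on the title number gave 923 higher and 819 lower genes and 5 lower members. That on the description number gave 281 and 248 genes and 4 members. Only the description numbers 1, 5 and 6 occurred in both groups, so control 2 and Alb-cre 2 and 3 did not inform that contrast. Deviations of the samples sharing these numbers correlated at 0.05, -0.08 and -0.11. Srd5a1, which was not called, had a log2 fold change of -0.18 to 0.0444 over the fits without 1 liver, positive without GSDMD-NT Alb-cre 2, and of 0.0139 with the description block and 0.0067 without controls 2 and 4. The causes were not tested. Simulated recovery of 1.5-fold changes was 19.4%, in a setting with a far smaller share of altered genes than was called here. Falls of the size of Hsd17b11 (1.2-fold) may be missed.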
